A study of Mus musculus with 4 samples.

Results

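The 6 genes described here, Thbd, Procr, Tfpi, F3, Vwf and Plat, encode proteins that brake, start or dissolve blood clots, and they were taken by symbol from the 55487 genes measured. They were read in single cells of mouse brain from 4 libraries, 1 for each pairing of age (young or old, the only ages the labels give) with genotype. WT Cre mice carried the endothelial driver Cdh5-Cre alone. EC-K4KO mice were littermates that combined this tamoxifen-inducible driver with floxed Klf4, so that the transcription factor Klf4 should be lost from endothelial cells, and both genotypes therefore carried the Cre. Tamoxifen induced the Cre in adult mice, and the labels name no other treatment. The background strain was C57BL/6J. The brains were dissociated mechanically and endothelial cells were enriched by sorting or another marker-based step. How many mice went into a library, and of which sex, is not given in the sources used here. Each group held 1 library, so no difference between a pair of libraries has a replicate check, and the intervals below (95%) cover counting error only.

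Endothelial cells line every vessel and keep blood fluid by holding proteins of both kinds on or inside the cell. Thrombomodulin (Thbd) binds thrombin at the surface and turns it towards activating protein C, and the endothelial protein C receptor (Procr) presents protein C to that complex. Tissue factor pathway inhibitor (Tfpi) blocks the complex of factor VIIa with tissue factor (F3), the receptor that starts coagulation when blood meets cells outside the vessel. Von Willebrand factor (Vwf) is stored in endothelial granules and tethers platelets, and tissue plasminogen activator (Plat) turns plasminogen into plasmin, which dissolves fibrin. Thbd is known as a target of Klf2 and Klf4.

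In GRCm38, the build of the files, 3 of the genes lie on chromosome 2: Tfpi (chr2:84432855-84476775, minus strand), Thbd (chr2:148404466-148408188, minus strand) and Procr (chr2:155751117-155755471, plus strand). F3 lies at chr3:121723537-121735048, Vwf at chr6:125546774-125686679 and Plat at chr8:22757727-22782844, all on the plus strand. The reference table of RefSeq promoters (GRCm38.p6) held entries for 3 of the 6, Procr, F3 and Tfpi. The 250 bases before the start are shown for Procr and F3. Procr was the only member called with the genotype label over all endothelial-like cells in the model below, a call lost under some settings. F3 was the member that endothelial cells hardly expressed. Capitals mark matches to CACCC on either strand, the core bound by Klf factors, and to TGANTCA, the element bound by AP-1 factors.
Procr, chr2:155750967-155751216, plus strand: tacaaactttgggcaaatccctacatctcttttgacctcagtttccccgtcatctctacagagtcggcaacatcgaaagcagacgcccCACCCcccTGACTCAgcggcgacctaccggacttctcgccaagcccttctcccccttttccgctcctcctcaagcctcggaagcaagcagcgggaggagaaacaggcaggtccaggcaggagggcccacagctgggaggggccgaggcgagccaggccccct
F3, chr3:121723287-121723536, plus strand: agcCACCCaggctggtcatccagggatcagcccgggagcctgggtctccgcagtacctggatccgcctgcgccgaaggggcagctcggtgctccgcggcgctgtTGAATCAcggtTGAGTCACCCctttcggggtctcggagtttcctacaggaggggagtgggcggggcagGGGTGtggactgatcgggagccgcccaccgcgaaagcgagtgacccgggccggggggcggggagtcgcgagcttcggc
The Procr window held 1 CACCC and 1 TGANTCA match, 3 bases apart. The F3 window held 3 CACCC matches, 1 of them on the other strand, and 2 TGANTCA matches, and the second TGANTCA shared its last 2 bases with a CACCC. Windows of the same length held CACCC in 52% and TGANTCA in 6.75% of the 32851 promoters in the table. The RefSeq start behind the Procr window lies inside the gene as the annotation of the files gives it, so the end of that window overlaps the gene, while the F3 window ends at the base before the gene. A match is a run of letters and does not show that a factor binds there.

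The libraries held 5324 to 8358 barcodes and 30655769 to 88812581 UMIs (unique molecular identifiers, each standing for 1 RNA molecule), and 20525 cells were kept. They included 9578 endothelial-like cells: 2587 from young WT Cre, 3160 from the young EC-K4KO label, 2030 from old WT Cre and 1801 from the old EC-K4KO label, with median depths of 6365, 9843, 4726.5 and 3767 UMIs. All 8 endothelial markers were detected in every library. Klf4 went against the genotype labels: it stood at 1699.7 counts per 1000000 UMIs (CPM) in young WT Cre, 3263 in the young library labelled EC-K4KO, 2124 in the old WT Cre library and 3309 in the old library labelled EC-K4KO. Klf4 passed the additive model described below as higher with the EC-K4KO label (log2 change 0.82 ± 0.12, adjusted p = 0.00244, edgeR). Whether its UMIs fall inside the floxed part is not given in the sources used here, so every direction below is between labels. Klf2, the related factor, stood at 4297, 6701, 4617 and 5534 CPM in the same order. The libraries shared 98 barcodes with one another.

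The 6 genes were spread over the cell classes of the brain in 6 different ways. Endothelial-like cells made up 46.7% of the kept cells, and they held 88.3% of all Vwf UMIs, 78.7% of Thbd, 75.3% of Plat, 62.0% of Procr and 48.9% of Tfpi. Of the F3 UMIs, 65.6% lay in astrocyte-like and 25.7% in fibroblast-like cells, which were 3.48% and 0.784% of the cells. Vwf was thus the member most confined to the endothelium by this share, and F3 the one found outside it.

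**Figure D1:**
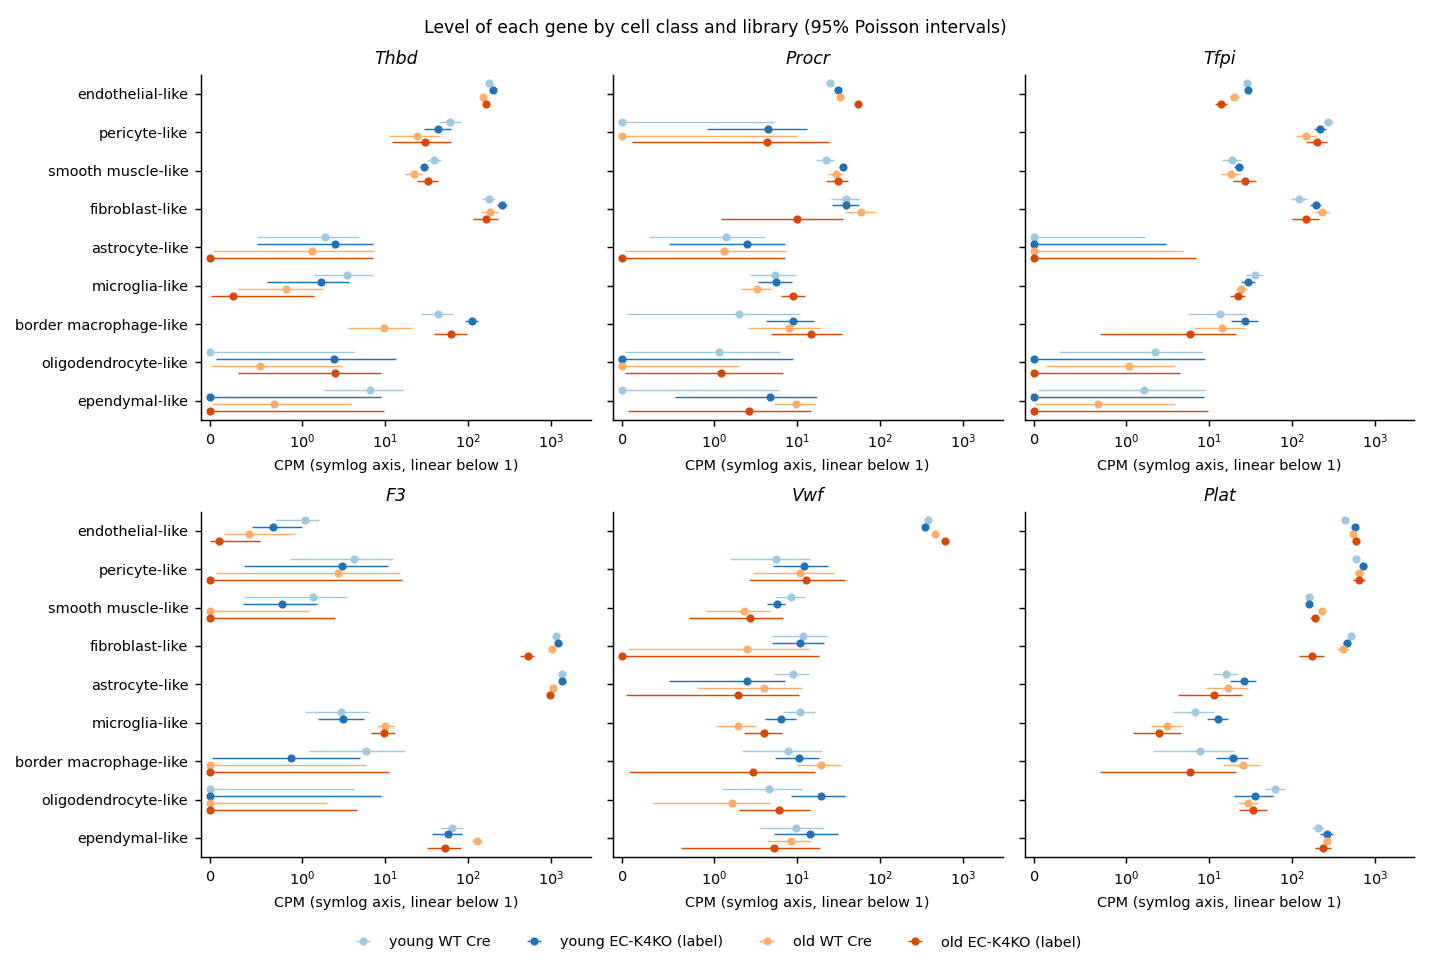
CPM of each gene (horizontal axis, symmetric log scale, linear below 1) in 9 cell classes (vertical axis), with 1 point per library and 95% Poisson intervals. Vwf stands high in endothelial-like cells alone of these 9 classes, F3 stands near 1000 CPM in astrocyte-like and fibroblast-like cells, and Plat is high in pericyte-like cells too.

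Among the classes, Thbd stood at 180 CPM in endothelial-like cells and at 206 CPM in fibroblast-like cells, summed over the 4 libraries. Pericyte-like and smooth muscle-like cells were at 44.4 and 29.9 CPM, border macrophage-like cells at 67.1 CPM, and astrocyte-like cells at 1.72 CPM. Among the whole clusters and classes its highest level was in a small unnamed cluster of 76 cells led by Plvap, the diaphragm protein of leaky vessels, at 359 CPM. That cluster passed 5 of the 8 endothelial markers and held 26.4 CPM of Vwf, against 406 CPM in endothelial-like cells.

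Procr reached 40.2 CPM in fibroblast-like cells (85 UMIs), 32.2 CPM in endothelial-like and 32.0 CPM in smooth muscle-like cells, and it was at 2.02 CPM in pericyte-like cells. The smooth muscle-like cluster led by Rasl11a held 598 of the 609 Procr UMIs of its class, at 46.9 CPM, and the cluster led by Actg2 was at 1.75 CPM (11 UMIs). An unnamed cluster of 215 cells led by Ccl19, which passed 5 of 7 pericyte markers, held more of it, at 223 CPM. In that cluster Procr was at 30.5 CPM (3 UMIs) in young WT Cre, 97.5 CPM (52 UMIs) in the young library labelled EC-K4KO, 334 CPM (112 UMIs) in the old WT Cre library and 693 CPM (71 UMIs) in the old library labelled EC-K4KO. The 4 counting intervals overlapped only between the 2 young libraries, and the cluster held 19 to 86 cells per library.

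Tfpi was highest in pericyte-like cells (222 CPM) and fibroblast-like cells (174 CPM). Microglia-like cells were at 26.5 CPM and endothelial-like cells at 26.0 CPM. No Tfpi UMI was found in astrocyte-like cells.

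Plat stood at 657 CPM in pericyte-like, 538 CPM in endothelial-like and 446 CPM in fibroblast-like cells. Ependymal-like cells followed at 248 CPM and smooth muscle-like cells at 175 CPM, and microglia-like cells were at 5.49 CPM. Within the smooth muscle-like class the cluster led by Rasl11a was at 205 CPM and the cluster led by Actg2 at 114 CPM.

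Within the endothelium, the segments were named from arterial, capillary and venous markers, none of which was a member, and the members were also left out of the genes used to cluster. Venous-like cells made up 15.8% to 19.6% of endothelial-like cells, arterial-like cells 20.5% to 21.6% and capillary-like cells 58.9% to 63.1%. Summed over the libraries, Vwf ran from 192 CPM in capillary-like through 297 CPM in arterial-like to 791 CPM in venous-like cells. Thbd followed a different order, with 136 CPM in arterial-like, 162 CPM in capillary-like and 241 CPM in venous-like cells. Procr was highest in arterial-like cells, at 64.9 CPM, against 17.9 CPM in capillary-like and 26.0 CPM in venous-like cells. Tfpi was at 19.2, 24.1 and 33.8 CPM in arterial-like, capillary-like and venous-like cells, and Plat at 532, 596 and 464 CPM. Plat thus varied least among the segments of these 5 genes by the fold between its highest and lowest segment. F3, summed over the libraries, lay between 0.539 and 0.798 CPM in every segment.

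**Figure D2:**
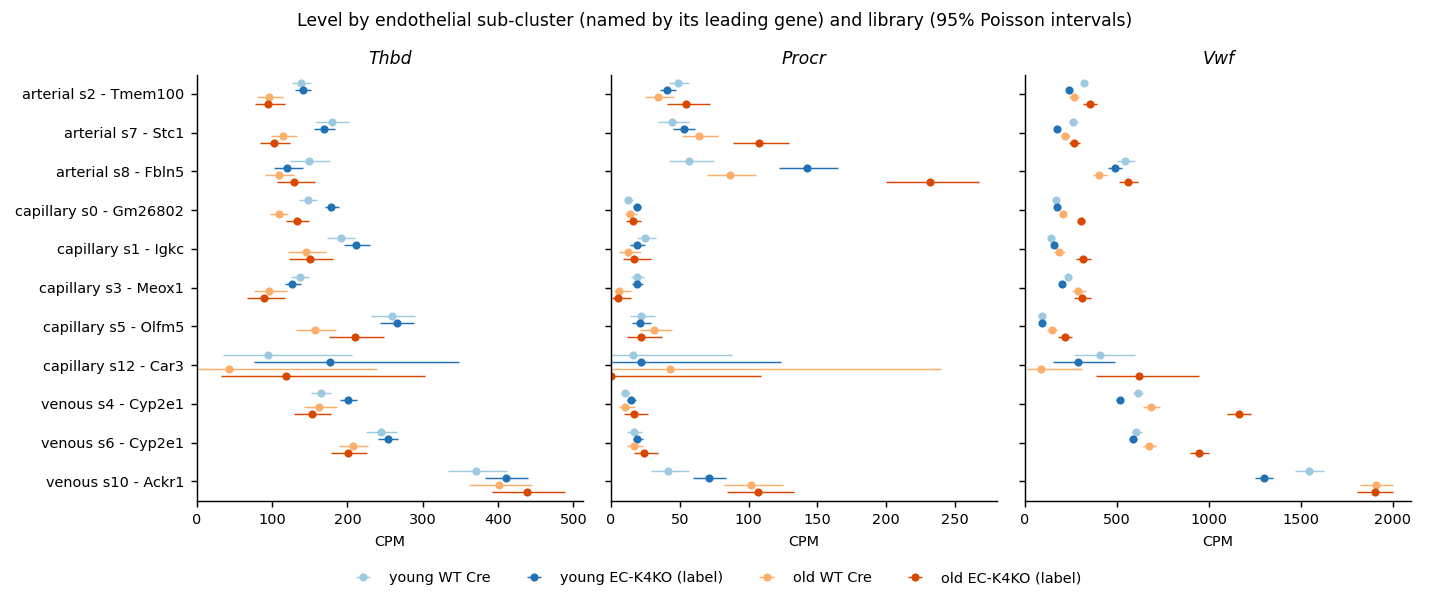
CPM of Thbd, Procr and Vwf (horizontal axes, linear) in 11 endothelial sub-clusters (vertical axis, with the leading gene of each), 1 point per library with 95% Poisson intervals. Summed over the libraries, the venous sub-cluster led by Ackr1 is highest for Thbd and Vwf, and the arterial sub-cluster led by Fbln5 for Procr. In the old WT Cre library Procr is higher in the Ackr1 than in the Fbln5 sub-cluster.

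Finer sub-clusters separated the genes further. Summed over the libraries, a venous-like sub-cluster of 203 cells led by Ackr1, the chemokine-binding receptor of venules, was the highest of the 11 for both Vwf (1565 CPM) and Thbd (405 CPM). By the same sums Procr was highest in an arterial-like sub-cluster of 288 cells led by Fbln5, an elastic fibre protein, at 126 CPM, and the Ackr1 sub-cluster was next at 76.7 CPM. The remaining arterial-like sub-clusters held 44.0 and 61.1 CPM of Procr. This order did not hold in every library. In old WT Cre the Ackr1 sub-cluster stood above the Fbln5 one, and in young WT Cre it stood below both remaining arterial-like ones. In the Fbln5 sub-cluster Procr was at 56.7 CPM in young WT Cre, 142 CPM in the young library labelled EC-K4KO, 86.3 CPM in the old WT Cre library and 232 CPM in the old library labelled EC-K4KO. Both libraries with the EC-K4KO label lay above both WT Cre libraries there, with counting intervals that did not overlap.

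The only test over libraries was an additive model of age and genotype label in edgeR, fitted to the summed UMIs of all 14637 genes that passed its low-count filter. It takes as error what the 4 libraries leave over after both terms, and so assumes that the effect of 1 label is the same at both ages. That leaves 1 residual degree of freedom per gene, so the error is in part borrowed from the other genes. With 1 library per group, the p-values do not measure the spread between mice of a group. With age, 3166 genes were called at an adjusted p under 0.05, 21.6% of those tested (12.9% higher in old and 8.78% lower in old). Of the 6 members, 3 were higher in old (Procr, Vwf and Plat) and 1 was lower (Tfpi), and 2 did not pass (Thbd and F3). With the genotype label 375 genes were called, 2.56%, with 1.41% of the genes tested higher and 1.15% lower with the EC-K4KO label, and 1 of the 6 members passed, Procr, which was higher. DESeq2 on the same sums called 1016 and 126 genes, and Procr and Vwf with age were the member calls it kept. The immediate early and dissociation list moved with age as well: its 15 genes, all detected in every library, summed to 15890 and 20487 CPM in the young and 27848 and 24967 CPM in the old endothelial-like cells (WT Cre first). The old library labelled EC-K4KO also held 147 CPM of the 5 neutrophil markers in endothelial-like cells, against 6.91 to 10.2 CPM in the remaining libraries. Some lists moved with the label at both ages. The 5 erythroid markers, for example, summed to 418 and 727 CPM in young and 456 and 927 CPM in old (WT Cre first). The 5 neuron markers went the other way, at 167 and 59.5 CPM in young and 314 and 108 CPM in old. The 11 venous markers, of which no member is one, summed to 1651 and 2449 CPM in the young and 3571 and 4804 CPM in the old libraries. The 9 arterial markers were higher in old too, at 1529 and 1203 CPM in young and 2131 and 2609 CPM in old, and the 7 capillary markers were lower, at 5864 and 5882 CPM in young and 4052 and 3825 CPM in old. The venous markers also rose inside segments: in venous-like cells they summed to 4013 and 5180 CPM in young and 8196 and 11296 CPM in old. In capillary-like cells they summed to 606 and 1032 CPM in young and 1389 and 1526 CPM in old. The venous-like shares were 15.8% and 19.6% in the young and 17.6% and 17.7% in the old libraries. The part of these lists in the results below was not tested. Over the 8424 genes with a mean of 10 CPM or more, the median log2 ratio of old over young was -0.18 in WT Cre and -0.15 between the EC-K4KO labels, so ratios of CPM with age are read against that shift, which the model's scaling takes out. The same model fitted to each segment called 15% of 11893 genes with age and 2.54% with the label in arterial-like cells, 13.7% and 1.84% of 12813 in capillary-like cells, and 13.5% and 1.97% of 12087 in venous-like cells. Of the 5 members tested there, 3 passed with age and 1 with the label in arterial-like cells, 3 and 1 in capillary-like cells, and 2 and 0 in venous-like cells.

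**Figure D3:**
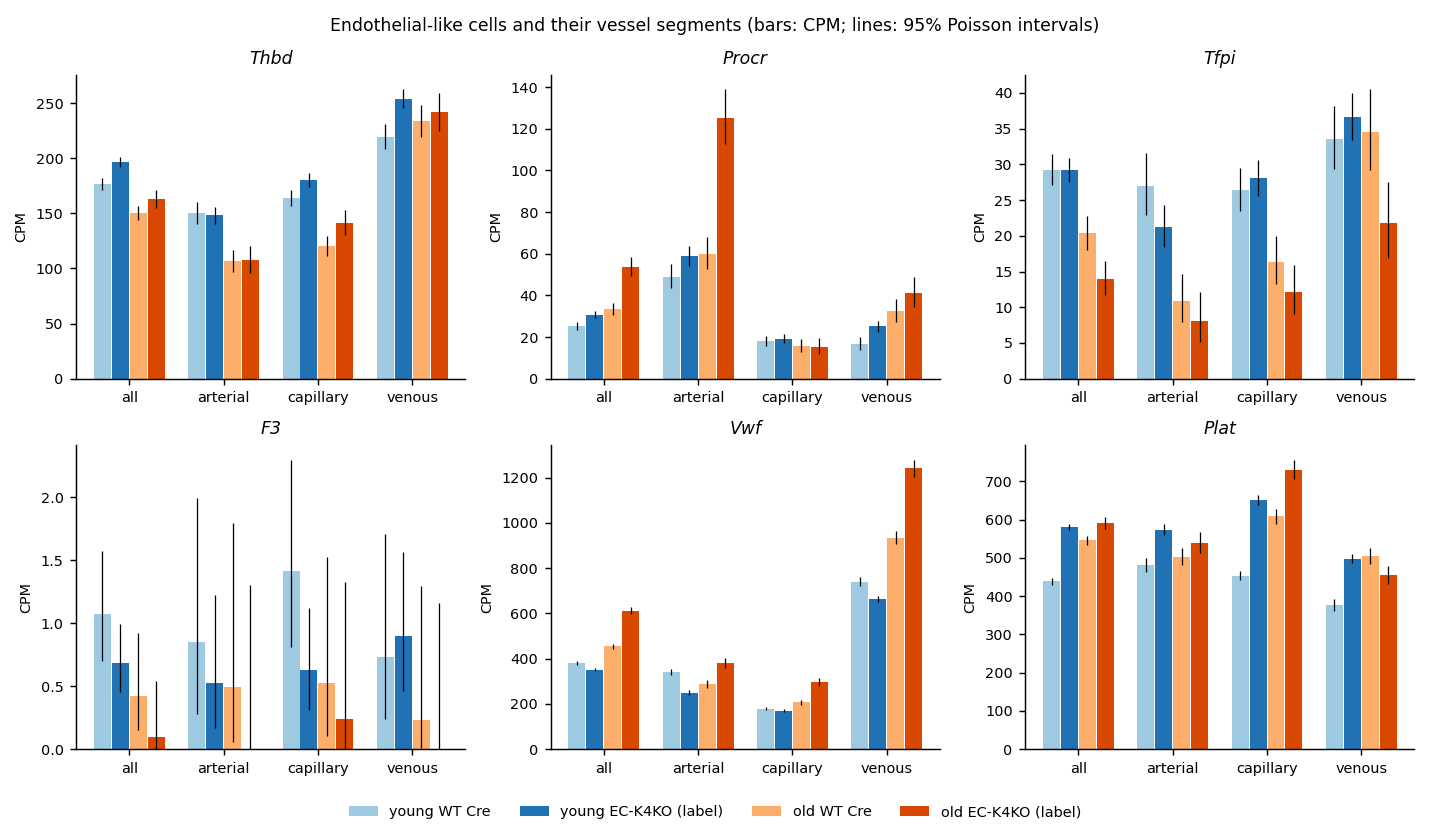
CPM of each gene (vertical axes, from 0) in all endothelial-like cells and in the arterial-like, capillary-like and venous-like cells, 1 bar per library with 95% Poisson intervals. Procr is highest in the arterial-like cells of the old library labelled EC-K4KO (125 CPM), Vwf in its venous-like cells (1241 CPM), and Tfpi is lowest in its arterial-like cells (8.10 CPM).

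Thbd, the thrombin-binding brake and the known Klf target, differed little between the libraries. In endothelial-like cells it stood at 176 CPM in young WT Cre, 197 CPM in the young library labelled EC-K4KO, 151 CPM in the old WT Cre library and 163 CPM in the old library labelled EC-K4KO. The library with the EC-K4KO label was higher at each age, by 0.16 (0.10 to 0.21) on the log2 scale between the young libraries and by 0.11 (0.02 to 0.21) between the old ones. The model gave 0.17 ± 0.08 (SE) for the label, with an adjusted p of 0.39 (edgeR), and -0.10 ± 0.08 for age, with an adjusted p of 0.379. By segment, age gave -0.32 ± 0.10 in arterial-like cells (adjusted p = 0.0316, edgeR), -0.25 ± 0.09 in capillary-like cells (adjusted p = 0.0782) and 0.17 ± 0.10 in venous-like cells (adjusted p = 0.254). Arterial-like Thbd was at 150 and 148 CPM in the young and 107 and 108 CPM in the old libraries, WT Cre first, so the 2 genotype labels stood together and the 2 ages apart. Whether the segments differ in their age effect was not tested.

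Procr, the receptor that presents protein C, was higher in old and higher with the EC-K4KO label in the summed UMIs, while the shares of cells with a Procr UMI at equal depth overlapped between the 4 libraries. Its summed levels in endothelial-like cells were 25.1 CPM in young WT Cre (609 UMIs), 30.7 CPM in the young library labelled EC-K4KO (1253 UMIs), 33.3 CPM in the old WT Cre library (473 UMIs) and 53.7 CPM in the old library labelled EC-K4KO (551 UMIs). The last library stood above the other three, and the intervals of the young EC-K4KO label (29.0 to 32.4) and old WT Cre (30.3 to 36.4) overlapped. In the model, age gave 0.76 ± 0.10 (adjusted p = 0.000298, edgeR) and the label 0.51 ± 0.10 (adjusted p = 0.0201, edgeR). The label call was lost with DESeq2 (adjusted p = 0.305) and with 3 of the other 6 planned settings. Between the labels the log2 ratio was 0.29 (0.15 to 0.43) for the young libraries and 0.69 (0.51 to 0.87) for the old ones. With every cell weighted equally the levels were 24.6, 28.4, 28.2 and 37.6 CPM in the same order, which gave 0.21 between the labels in the young and 0.41 in the old libraries, and 0.20 with age in WT Cre. With each cell thinned to 1000 UMIs, 2.82%, 2.72%, 3.10% and 2.94% of endothelial-like cells held a Procr UMI, with overlapping intervals (unthinned 17.7%, 24.2%, 14.0% and 14.6%, at unequal depths). In astrocyte-like cells, at a median depth of 6023 UMIs against 6160.5, the thinned share was 0 of 715 cells. No order is read from these shares, which do not follow the CPM.

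Arterial-like cells held 1446 of the 2886 Procr UMIs of the endothelium. Procr there was at 49.0, 58.7, 60.1 and 125 CPM in young WT Cre, the young EC-K4KO label, old WT Cre and the old EC-K4KO label, and the model gave 0.66 ± 0.14 for the label (adjusted p = 0.0113, edgeR) and 0.89 ± 0.14 for age (adjusted p = 0.00014). In venous-like cells age gave 0.99 ± 0.14 (adjusted p = 0.000308) and the label 0.52 ± 0.14 (adjusted p = 0.0936), with levels of 16.7, 25.1, 32.5 and 41.3 CPM in the same order. Capillary-like cells held 15.2 to 19.2 CPM in the 4 libraries, and neither term passed there, with an age coefficient of -0.12 ± 0.16 (adjusted p = 0.7).

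These class sums mix sub-clusters in shares that differ between the libraries, and Procr did not move alike in all of them. The Fbln5 sub-cluster, the highest for Procr when summed over the libraries, held 50 of 530 arterial-like cells in young WT Cre, 77 of 661 in the young EC-K4KO label, 85 of 438 in old WT Cre and 76 of 384 in the old EC-K4KO label. In the largest arterial-like sub-cluster, led by Tmem100, Procr was at 49.1, 41.1, 34.2 and 54.8 CPM in that order, so its value was smaller at the old age in WT Cre and under the label in the young pair, with overlapping counting intervals. In the sub-cluster led by Stc1 it was at 44.5, 52.8, 64.0 and 107 CPM. Among venous-like cells the Ackr1 sub-cluster stood at 41.4, 70.9, 102 and 107 CPM and held 31 of 409, 80 of 619, 45 of 358 and 47 of 319 cells. The 2 larger venous-like sub-clusters, both led by Cyp2e1, stood at 10.3 and 16.7 CPM in young WT Cre and at 10.4 and 16.8 CPM in old WT Cre, and at 14.7 and 19.3 CPM in the young and 16.6 and 24.3 CPM in the old EC-K4KO label. The next leading genes were Wnt5a and Flrt2 in the one with 933 cells, and Icam1, Icam5 and Cxcl1 in the one with 569 cells. In the Ackr1 sub-cluster they were Selp, Cxcl11 and Ifitm1. No test was run within sub-clusters, and the part of the shifting shares in the age and label coefficients was not tested.

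Tfpi, the inhibitor of the tissue factor complex, was lower in old endothelium. It stood at 29.2 CPM in both young libraries (706 UMIs in WT Cre and 1193 with the EC-K4KO label), 20.3 CPM in the old WT Cre library (289 UMIs) and 13.9 CPM in the old library labelled EC-K4KO (143 UMIs). No interval of an old library overlapped one of a young library. The age coefficient was -0.62 ± 0.13 (adjusted p = 0.00636, edgeR), and DESeq2 gave an adjusted p of 0.075 for it. The age coefficient was -1.18 ± 0.20 in arterial-like cells (adjusted p = 0.0003, edgeR), -0.77 ± 0.16 in capillary-like cells (adjusted p = 0.00538) and -0.15 ± 0.17 in venous-like cells (adjusted p = 0.599). Between the labels the young pair gave 0.00 (-0.13 to 0.14) and the old pair -0.54 (-0.84 to -0.25) on the log2 scale, and the label coefficient did not pass (-0.17 ± 0.13, adjusted p = 0.684).

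F3, tissue factor, was close to absent from the endothelium. Its 61 UMIs in 9578 endothelial-like cells made 0.681 CPM, against 1246 CPM in astrocyte-like cells. The 4 libraries held 26, 28, 6 and 1 of these UMIs, and the age coefficient of -1.55 ± 0.58 did not pass (adjusted p = 0.0771, edgeR). The 6 astrocyte markers, of which F3 is none, summed to 97.6 to 113 CPM in the endothelial-like cells of the 4 libraries and were not at 0, and the part of astrocyte RNA in these few UMIs was not tested.

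Vwf, the platelet tether, was higher in old endothelium. Its levels were 380 CPM in young WT Cre, 352 CPM in the young library labelled EC-K4KO, 455 CPM in the old WT Cre library and 611 CPM in the old library labelled EC-K4KO, and no interval overlapped another. Age gave 0.68 ± 0.11 (adjusted p = 0.00124, edgeR), and the call held in all 8 planned fits, DESeq2 among them. Venous-like cells were at 740, 664, 934 and 1241 CPM in that order (age 0.79 ± 0.12, adjusted p = 0.000676, edgeR) and capillary-like cells at 180, 171, 206 and 296 CPM (age 0.65 ± 0.12, adjusted p = 0.0014). In arterial-like cells, at 341, 250, 287 and 380 CPM, age did not pass (0.34 ± 0.14, adjusted p = 0.102).

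The direction of Vwf between the genotype labels was opposite at the 2 ages, with a small difference in the young pair. The library labelled EC-K4KO was lower in the young pair, by a log2 ratio of -0.11 (-0.15 to -0.07), and higher in the old pair, by 0.43 (0.38 to 0.48). With the model's scaling the young pair gave -0.065 and the old pair 0.44. With every cell weighted equally the young levels were 281 CPM in WT Cre and 269 CPM with the label. In capillary-like cells the young pair gave -0.074, and -0.029 with the model's scaling. The label coefficient of the model was 0.19 ± 0.11 (adjusted p = 0.566, edgeR), since the additive term averages both ages. The share of cells with a Vwf UMI after thinning to 1000 UMIs was 19.8% and 21.1% in the young pair (WT Cre first), with overlapping intervals, and 22.5% and 30.7% in the old pair, so it did not show the lower level of the young label. With 1 library per group the difference between the ages could not be tested. The 4 platelet markers summed to 9.64 to 16.2 CPM in these cells, and a sub-cluster of 123 cells led by the platelet gene Ppbp had been left out.

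**Figure D4:**
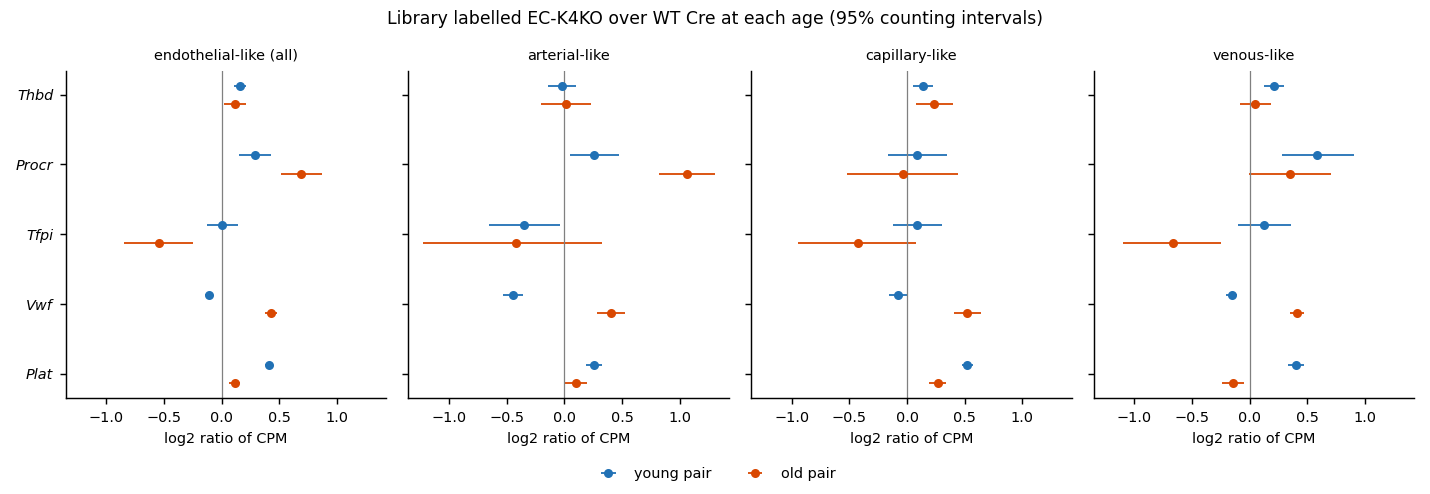
Log2 ratio of CPM of the library labelled EC-K4KO over WT Cre (horizontal axes) for 5 genes at the young and the old age, in all endothelial-like cells and in 3 segments, with 95% counting intervals. For Vwf the point of the young pair lies below 0 and that of the old pair above 0 in every panel, with the young point at only -0.074 in capillary-like cells. Procr in the old pair reaches 1.06 in arterial-like cells.

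Plat, the plasminogen activator, was lowest in young WT Cre. It stood at 439 CPM there, 581 CPM in the young library labelled EC-K4KO, 546 CPM in the old WT Cre library and 591 CPM in the old library labelled EC-K4KO. The last 3 libraries lay close to one another, and the first lay apart below them. Age gave 0.32 ± 0.10 (adjusted p = 0.0361, edgeR), which did not pass in 3 of the 7 alternatives, and the label gave 0.29 ± 0.10 (adjusted p = 0.187). Capillary-like cells, at 454, 651, 609 and 731 CPM, passed with both terms (age 0.45 ± 0.09, adjusted p = 0.00508; label 0.42 ± 0.09, adjusted p = 0.0308, edgeR). Venous-like cells passed with neither term, and their levels were 377, 498, 504 and 456 CPM.

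The other genes of coagulation and fibrinolysis were read from a list of 47 genes in 7 roles, of which 25 passed the low-count filter in endothelial-like cells. With age 12 were higher in old, 1 was lower and 12 did not pass, so 48% of the 25 were higher, against 12.9% of all genes tested. The list was chosen with earlier results of these data known, so this share and those of the roles below are descriptions, not tests of the list. DESeq2, which called 1016 of the 14637 genes with age in either direction, kept 6 of the higher calls (F10, Plaur, Anxa2, S100a10, Selp and Mmrn2). It did not keep the lower one, Serpine2. Over the 25 the median log2 change was 0.29, against -0.02 over all 14637 genes. With the genotype label 1 was higher (Entpd1), none was lower and 24 did not pass, with a median of 0.02 against -0.00 over all genes. Selp, P-selectin, which is stored in the same granules as von Willebrand factor and catches leukocytes, rose most of the 25 by log2 change, from 0.909 and 3.94 CPM in young to 31.2 and 38.4 CPM in old (WT Cre first), a log2 change of 4.001 ± 0.27 (adjusted p = 1.31e-06, edgeR). All 3 tested genes of the role that holds platelet adhesion and the handling of von Willebrand factor rose with age, the other two being Mmrn2 (0.42 ± 0.08), an endothelial matrix protein and the highest of the role at a mean of 231 CPM, and Cd63 (0.68 ± 0.17, adjusted p = 0.0144, edgeR), a granule membrane protein. The Cd63 call was lost with DESeq2 (adjusted p = 0.238) and with classes set per cell (adjusted p = 0.0685).

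**Figure D5:**
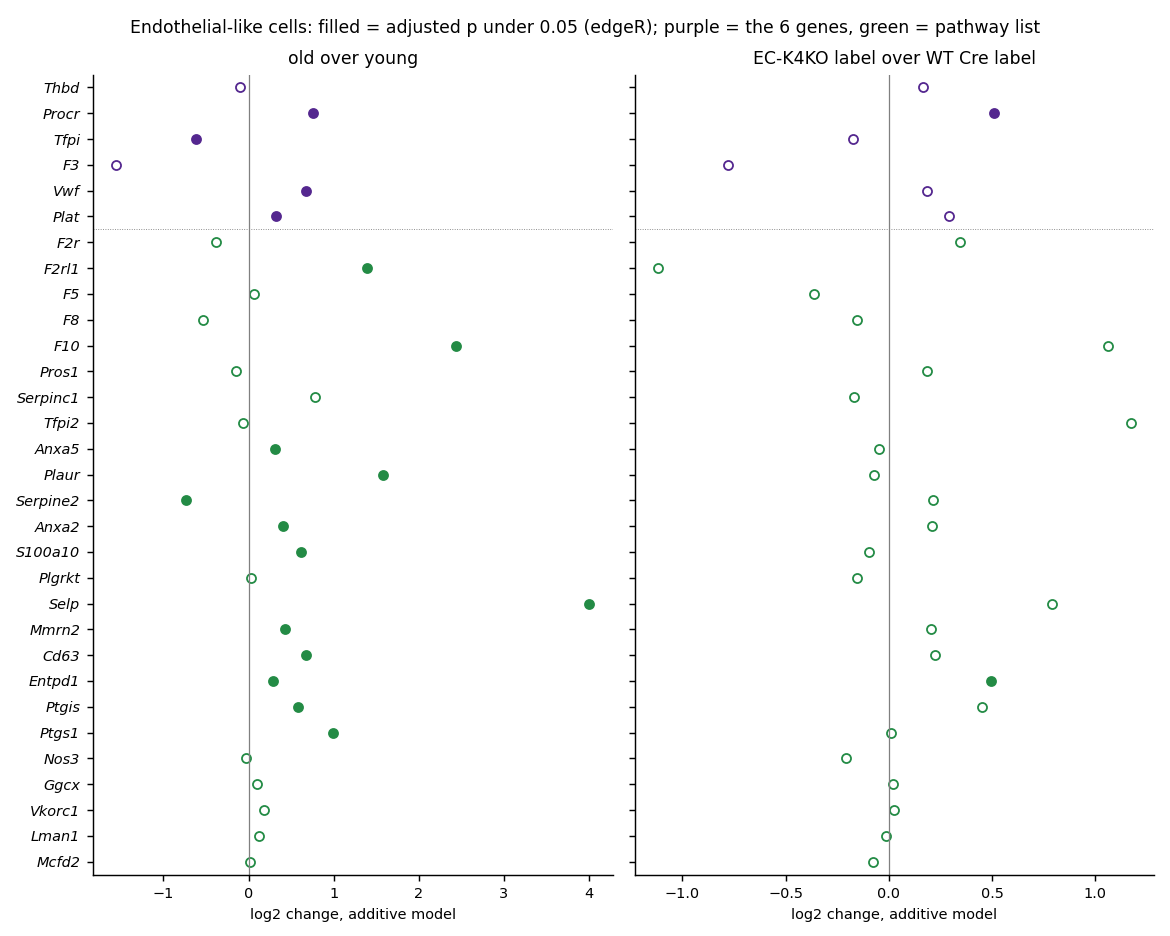
Log2 change in the additive model (horizontal axes) for the 6 genes and the 25 tested genes of the pathway list (vertical axis), for age on the left and genotype label on the right. Filled points had an adjusted p under 0.05 in edgeR. With age these were 4 of the 6 genes and 13 of the 25, all to the right of 0 but Tfpi and Serpine2, and with the label Procr and Entpd1.

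Of the 5 tested fibrinolysis genes 3 rose with age and 1 fell, where 12.9% of all genes tested were higher and 8.78% lower. Plaur, the urokinase receptor, stood at 38.6 and 43.9 CPM in young and 127 and 97.6 CPM in old (1.59 ± 0.12, adjusted p = 2.81e-06, edgeR). Anxa2 and S100a10, which form the surface complex that binds plasminogen and its tissue activator, rose by 0.41 ± 0.08 and 0.61 ± 0.08, and Anxa2 had the highest mean of the role, 269 CPM. Serpine2, protease nexin 1, fell by 0.74 ± 0.21 (adjusted p = 0.0296), with 22.4, 35.3, 18.3 and 12.0 CPM in the 4 libraries, and its call was lost in 4 of 7 alternatives (adjusted p = 0.628 with DESeq2).

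Of the 4 genes of platelet inhibition 3 passed as higher with age in edgeR, where 12.9% of all genes did. Entpd1, the ectonucleotidase that breaks down ADP, was at 77.3 CPM in young WT Cre, 109 CPM in the young library labelled EC-K4KO, 87.0 CPM in the old WT Cre library and 117 CPM in the old library labelled EC-K4KO. It passed with the label (0.49, adjusted p = 0.00364, edgeR) and with age (0.29), and the libraries labelled EC-K4KO were higher at both ages. Ptgis, prostacyclin synthase, and Ptgs1, cyclooxygenase 1, rose with age by 0.58 and 0.99, and Nos3, the endothelial nitric oxide synthase with the highest mean of the role (187 CPM), did not pass with either term. All 3 age calls of this role were lost with DESeq2 (adjusted p of 0.238 for Entpd1, 0.101 for Ptgis and 0.226 for Ptgs1), and that of Ptgs1 also without the venous-like cells and with classes set per cell, while the label call of Entpd1 was kept with DESeq2 (adjusted p = 0.0462).

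In the remaining roles fewer genes passed. Of the receptors F2rl1, protease-activated receptor 2, was called higher with age (1.40 ± 0.35, a call lost with DESeq2) at levels of 1.24 and 0.637 CPM in young and 3.31 and 1.27 CPM in old, which nearly met between young WT Cre and the old EC-K4KO label. Of the procoagulant factors F10, factor X, rose by 2.44 ± 0.32 (0.826 and 1.10 CPM in young, 2.60 and 7.21 CPM in old), and F5, factor V and the highest of the role at 15.4 CPM, did not pass. Anxa5, which covers exposed phosphatidylserine and was the highest anticoagulant at 381 CPM, rose by 0.31 ± 0.09 (adjusted p = 0.0219, edgeR), a call that was lost with DESeq2 (adjusted p = 0.0874) and with classes set per cell (adjusted p = 0.0502). None of the 4 genes of the vitamin K cycle and factor secretion passed, and Lman1, which carries factors V and VIII out of the endoplasmic reticulum, was the highest of them at 110 CPM.

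Outside the endothelium fewer cells and UMIs stood behind each value. F3 in astrocyte-like cells was at 1329.7 CPM in young WT Cre, 1342 CPM in the young library labelled EC-K4KO, 1045 CPM in the old WT Cre library and 970 CPM in the old library labelled EC-K4KO. Both old libraries lay below both young libraries, with intervals apart, but age did not pass (-0.42 ± 0.20, adjusted p = 0.574, edgeR), in a fit that called 0.853% of 9495 genes with age and 0 of the 2 members tested. In fibroblast-like cells, 25 to 54 per library, F3 was at 1128, 1191, 1020 and 518 CPM in the same order.

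In microglia-like cells F3 was low but passed with age: 2.92 and 3.07 CPM in young and 9.998 and 9.54 CPM in old (2.01 ± 0.37, adjusted p = 0.000102, edgeR), in a fit that called 27.4% of 11246 genes and 3 of the 5 members tested. It lay mostly in the microglia-like cluster led by Il1a, at 11.4 CPM, against 1.66 CPM in the cluster led by P2ry12. The Il1a cluster held 72 and 98 cells in the young and 901 and 500 cells in the old libraries, so the class sum mixes the clusters in different shares. Within the Il1a cluster F3 was at 6.50 and 4.76 CPM in young (4 UMIs each) and 12.7 and 11.6 CPM in old (72 and 37 UMIs), so both old libraries lay above both young ones, with counting intervals of single libraries that overlapped. Within the P2ry12 cluster it was at 1.39 and 2.55 CPM in young (2 and 7 UMIs) and 0.611 and 1.24 CPM in old (1 UMI each). No test was run within these clusters. The astrocyte markers summed to 200.1 and 227 CPM in the young and 205 and 180 CPM in the old microglia-like cells, and their part in the F3 value was not tested. Plat and Vwf were lower in old microglia-like cells (-1.41 ± 0.38, adjusted p = 0.00497, and -1.25 ± 0.42, adjusted p = 0.0234), at levels of 1.92 to 12.8 CPM. The 8 endothelial markers, all detected there, moved the same way, from 412 and 314 CPM in the young to 85.9 and 141 CPM in the old microglia-like cells, and their part in these values was not tested.

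Mural cells held the remaining values. Tfpi in pericyte-like cells was at 272, 217, 148 and 202 CPM in young WT Cre, the young EC-K4KO label, old WT Cre and the old EC-K4KO label, and age did not pass (-0.42 ± 0.22, adjusted p = 0.538, edgeR). Plat in the same cells was at 601, 727, 648 and 645 CPM and passed with neither term; that fit called 0.805% of 7205 genes with age and 0 of the 3 members tested. In smooth muscle-like cells Plat was at 162 and 163 CPM in young and 228 and 189 CPM in old (0.38 ± 0.12, adjusted p = 0.0349), and Vwf, at 2.27 to 8.46 CPM, was lower in old (-1.54 ± 0.51, adjusted p = 0.0428), in a fit that called 6.15% of 10618 genes with age and 2 of the 5 members tested. The endothelial markers in smooth muscle-like cells summed to 779 and 429 CPM in young and 252 and 237 CPM in old, and their part in the Vwf value was not tested. No member passed with the genotype label in astrocyte-like, pericyte-like, smooth muscle-like or microglia-like cells, where it called 0.242%, 0.0555%, 0.452% and 0.774% of the genes tested.

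The genes whose levels were most like each member's were sought over 24 sums, the 6 classes with at least 50 cells in every library times 4 libraries, among 7356 genes. These sums share libraries and classes, so the correlations are descriptions. For Vwf the closest was Flt1 (Pearson r = 0.97), the receptor for vascular endothelial growth factor, followed by She and Acer2. Plat was closest to Itga1 (r = 0.98), an integrin for collagen, F3 to Slc25a18 (r = 0.98), a mitochondrial glutamate carrier, and Tfpi to Eif4e3 (r = 0.95). Thbd was closest to Pcbp2 (r = 0.93), with Anxa2 of the fibrinolysis list next (r = 0.92). Procr had the lowest of these values, and its closest gene was Cdkn1a (r = 0.88), the cell cycle inhibitor p21.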

How the data were processed

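Brain cells of 4 libraries were analysed, 1 per group of age and genotype label. The authors ran Cell Ranger and deposited raw UMI counts per gene and barcode (version 6.0.2 in the headers of the matrix files; builds mm10 and GRCm38 in the submitters' processing notes). Barcodes needed at least 500 genes and 1000 UMIs and at most 10% mitochondrial UMIs. The highest Scrublet scores, 0.8% per 1000 cells, were removed (1189 barcodes), because the automatic threshold marked 357; 20525 cells stayed. Cells were clustered with scanpy 1.11.5 and leidenalg 0.10.2 (2000 variable genes without the members, 30 components, 20 neighbours, resolution 1). Classes were named from marker lists, by a rule set after clusters had been seen: at least 75% of the markers of a class, each at 20 CPM and 25% of its highest cluster or more. Endothelial-like cells were clustered again, scaled within library, into segments. Names can therefore differ from the annotation of the study.

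UMIs were summed per library and class. CPM carry exact Poisson intervals, and ratios of 2 libraries the exact conditional binomial interval, at 95%. The additive model was fitted with edgeR 4.0.16 (filterByExpr, TMM, quasi-likelihood test, Benjamini-Hochberg adjustment over all genes), with DESeq2 1.42.0 as an alternative. Its standard errors are the coefficient divided by the square root of F. The fits within segments and other classes were added after seeing the data. Motifs were searched in RefSeq promoters of GRCm38.p6.

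The members and gene lists were chosen with earlier results of these data known. Named with values were the 6 members, Klf4 and Klf2, every pathway gene that passed with either term, the pathway gene with the highest mean CPM of each role, and the genes most like each member. Clusters outside the classes were named after their values were seen.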

Additional observations from a re-analysis of the deposited data

Results flagged for a closer look

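Effects of opposite sign, with both counting intervals off 0, were found for Vwf and Plat. Vwf in the library labelled EC-K4KO over WT Cre gave log2 ratios of -0.11 in the young and 0.43 in the old pair in all endothelial-like cells, -0.45 and 0.41 in arterial-like cells, and -0.16 and 0.41 in venous-like cells. These signs stayed with TMM scaling (-0.065 and 0.44 in all endothelial-like, -0.42 and 0.41 in arterial-like, -0.11 and 0.44 in venous-like cells). Capillary-like cells, at -0.074 and 0.52 (-0.029 and 0.54 with TMM scaling), were not flagged. In arterial-like cells Vwf in old over young gave -0.25 in WT Cre and 0.60 between the EC-K4KO labels, and with TMM scaling -0.08 and 0.76.

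Plat in venous-like cells gave 0.40 between the labels in the young and -0.15 in the old pair. With age it gave 0.42 in WT Cre and -0.13 between the EC-K4KO labels; with TMM scaling the latter was 0.03, so that sign depends on the scaling. With 1 library per group, none of these differences was tested.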

How the results depend on the processing

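No paired analysis was possible because the groups share only replicate number 1, with 1 library each. With age 3166 genes were called, and 1016 with DESeq2; with the genotype label 375 were called, and 126 with DESeq2, 801 with no filter on low counts, 216 with the stricter cell filter, 124 with no doublets removed and 153 with classes per cell from marker UMIs. The label call of Procr was lost with DESeq2 (0.52), the stricter cell filter (0.53), no doublets removed (0.49), classes per cell (0.42), and in capillary-like (0.077) and venous-like cells alone (0.52); its age coefficient turned to -0.12 in capillary-like cells. The age call of Plat was lost with DESeq2 (0.33), no doublets removed (0.33), classes per cell (0.33), and in arterial-like (0.15) and venous-like cells alone (0.31), and that of Tfpi with DESeq2 (-0.62) and in venous-like cells (-0.15). Vwf with age did not pass in arterial-like cells (0.34). Calls were gained for Thbd with age without the venous-like cells (-0.29) and in arterial-like cells (-0.32), F3 with age with classes per cell (-3.09), and Plat with the label with no filter (0.29) and in capillary-like cells (0.42). Signs turned for Thbd with age in venous-like cells (0.17), Vwf with the label in arterial-like cells (-0.018) and F3 with the label with classes per cell (0.33). Of the pathway list DESeq2 called 6 genes higher and 0 lower with age, the DESeq2 size factors, the stricter cell filter and no doublets removed also 0 lower (Serpine2 was lost in each), and no filter 5 higher and 2 lower with the label. Why was not tested.

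Leaving out 1 library leaves no residual degree of freedom, so these are values with no test: with age -0.14 to -0.06 for Thbd, 0.57 to 0.94 for Procr, -0.93 to -0.35 for Tfpi, -2.12 to -1.09 for F3, 0.42 to 0.93 for Vwf and 0.16 to 0.48 for Plat, and with the label 0.13 to 0.20 for Thbd, 0.33 to 0.70 for Procr, -0.53 to 0.050 for Tfpi, -1.63 to -0.60 for F3, -0.065 to 0.44 for Vwf and 0.13 to 0.45 for Plat, where Vwf and Tfpi turned in sign without either old library. F3 has no value under DESeq2 (no adjusted p) or without the venous-like cells and in the segments alone (under the low-count filter). Selp was under that filter without the venous-like cells. Of 192 ratios between 2 libraries in endothelial-like cells under 8 alternatives, 161 stayed within their counting interval, 31 left it and 0 changed sign where the interval excluded 0.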
